A study of Mus musculus with 20 samples.

Results

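CC chemokine ligands are small secreted proteins with a pair of adjacent cysteines near the start of the mature chain, and this account concerns 10 of them as transcripts of sorted mouse microglia: Ccl2, Ccl3, Ccl4, Ccl5, Ccl6, Ccl7, Ccl8, Ccl9, Ccl12 and Ccl24. Each was taken as the probe set that named that gene alone and had the highest mean signal, and the 10 stand among 19751 genes so measured. All 10 passed the filter on low signal and were tested with 12728 genes in all. Microglia, the resident macrophages of the brain, were purified by fluorescence-activated sorting from perfused brains of littermates aged 8.5 months, and their RNA was read on one-colour microarrays from 2 ng of total RNA. There were 4 arrays of WT mice, 4 of Trem2-/- mice, which lack the microglial lipid receptor Trem2, 5 of 5XFAD mice and 6 of Trem2-/-5XFAD mice. 5XFAD mice form amyloid plaques, because a neuronal promoter drives human transgenes for amyloid precursor protein and presenilin that carry familial Alzheimer's disease mutations, and Trem2 is missing in every cell type of the knockout. Neither the animals' sex nor the sorting gate is stated in the labels. The labels name littermates but do not say how far the samples are separate. The p-values set each difference against the spread between arrays within genotypes. They would be too small if the arrays were not independent.

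CC chemokines bind G protein-coupled receptors on leukocytes and steer their migration. Most are switched on quickly in macrophages by NF-kappaB and AP-1 transcription factors once the cell senses damage or microbes. The monocyte chemoattractant group, with Ccl2, Ccl7 and Ccl12, acts mainly through Ccr2 on monocytes, Ccl8 acts in the mouse through Ccr8, Ccl24 is an eotaxin that acts through Ccr3, Ccl3, Ccl4 and Ccl5 attract monocytes and T cells, and Ccl6 and Ccl9 act through Ccr1. Ccl6, Ccl9 and Ccl12 are rodent genes without a simple human counterpart.

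The 19 assigned arrays matched their Trem2 labels. Trem2 averaged 11.31 on the log2 scale in WT and 11.68 in 5XFAD, against 6.96 in Trem2-/- and 7.05 in Trem2-/-5XFAD, and the arrays with and without Trem2 did not overlap. A further array, with a WT title and a Trem2-/- genotype label, stood at 11.08 and was in no group. All 12 microglial markers with a probe set lay above the 40th percentile of every array, though 9 of them fell in 5XFAD against WT and 6 rose in Trem2-/-5XFAD against 5XFAD. Some arrays stood apart. WT 1, WT 2, 5XFAD 1 and 5XFAD 2 had Klk1b22, a transcript of salivary gland, at 7.91 to 9.51 where no other assigned array passed 3.80. These 4 arrays also split from the other WT and 5XFAD arrays in the correlations of deviations given below. They are called the 4 arrays with salivary transcripts below, a name that rests on this 1 gene. The labels name no such tissue, and its presence was not tested. Neutrophil markers averaged 5.86 in Trem2-/- 1 and 6.07 in Trem2-/-5XFAD 1, and at most 5.24 elsewhere. Xist, a transcript of female cells, was high in 3 of 4 WT, 3 of 4 Trem2-/-, 1 of 5 5XFAD and 0 of 6 Trem2-/-5XFAD arrays.

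All levels here are log2(intensity + 1), all differences are log2 differences with their standard error, and a gene is called higher or lower at a limma p below 0.05 after Benjamini-Hochberg adjustment over the 12728 genes. In 5XFAD against WT, 6 of the 10 ligands were called, 2 higher and 4 lower, where 15.0% of all tested genes were called, 8.23% higher and 6.77% lower. Ccl6 and Ccl5 were higher, Ccl2, Ccl7, Ccl24 and Ccl9 lower. The median difference of the 10 was -0.01, beside -0.02 for all tested genes. In Trem2-/-5XFAD against 5XFAD, 4 of 10 were called, 3 higher (Ccl2, Ccl7 and Ccl24) and 1 lower (Ccl6), where 7.68% of all genes were called, 3.21% higher and 4.46% lower. The arrays of 3 ligands (Ccl2, Ccl6 and Ccl9) did not overlap between 5XFAD and WT, and those of 3 (Ccl2, Ccl6 and Ccl7) between Trem2-/-5XFAD and 5XFAD, where this held for 13.4% and 7.14% of all genes. These 2 comparisons share the 5 5XFAD arrays, so their differences are not independent and opposite signs between them carry no weight of their own. The ligands thus fell into those lower in 5XFAD (Ccl2, Ccl7, Ccl24, Ccl9), those higher (Ccl6, Ccl5) and those not called in either comparison (Ccl3, Ccl4, Ccl8, Ccl12).

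**Figure D1:**
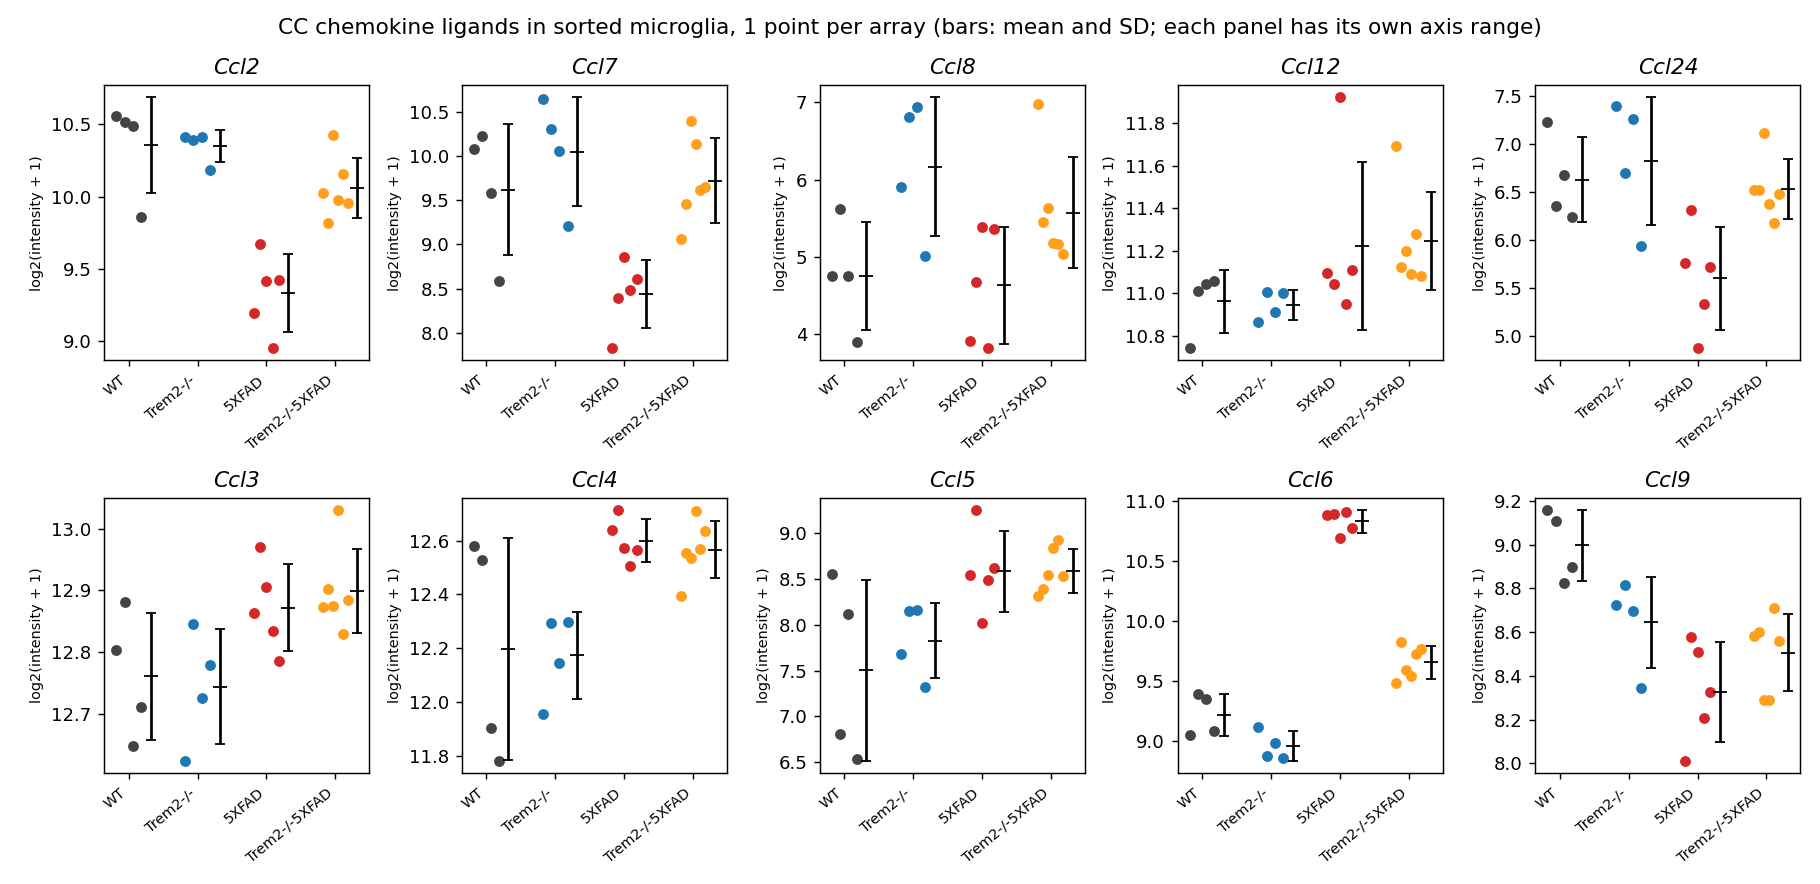
Level of each of the 10 CC chemokine ligands, log2(intensity + 1), with 1 point per array in the 4 genotypes and the mean and SD beside each group. Ccl6 in 5XFAD (10.69 to 10.90) lies above every array of the other groups, and Ccl2 in 5XFAD (8.95 to 9.67) lies below every one of them.

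**Figure D2:**
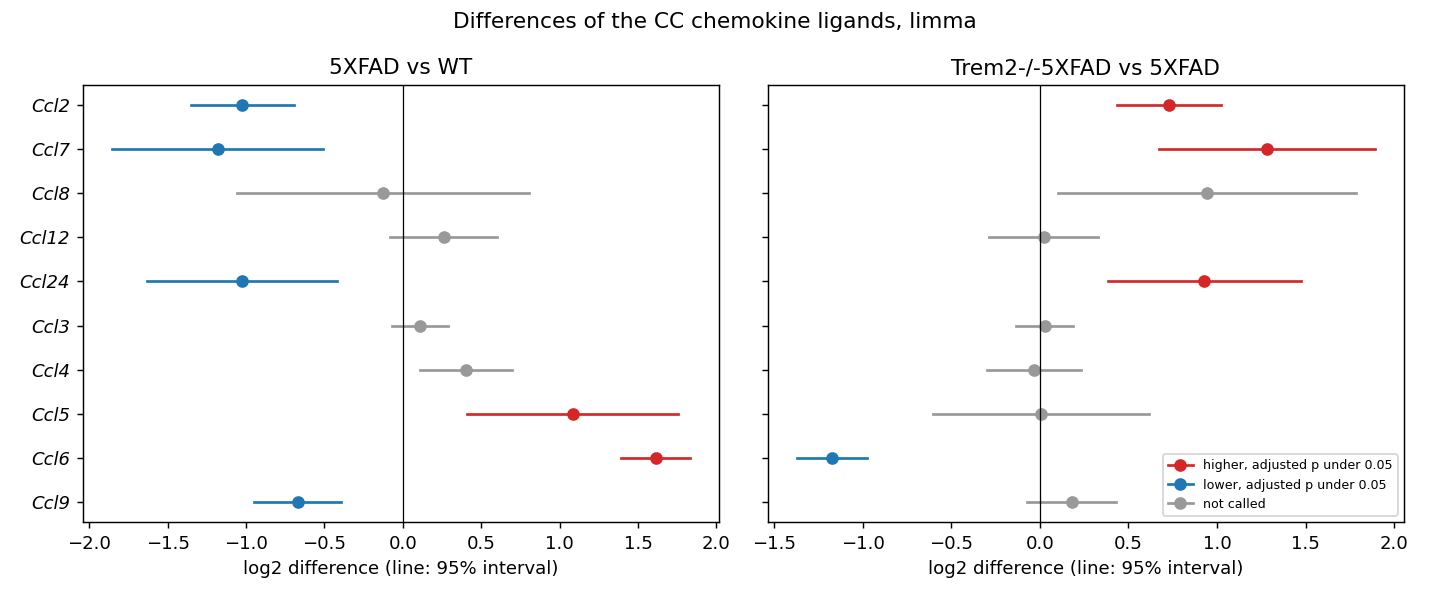
Log2 difference of each ligand with its 95% interval, for 5XFAD against WT and for Trem2-/-5XFAD against 5XFAD, coloured by the limma call. Ccl6 has the largest absolute difference of the 10 in the first comparison (1.61), and Ccl7 in the second (1.28).

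Ccl6 showed the clearest pattern among the ligands. This Ccr1 ligand is made by macrophages and other myeloid cells of the mouse. Its level was 9.05, 9.39, 9.35 and 9.08 in the WT arrays and 9.12, 8.87, 8.98 and 8.85 in the Trem2-/- arrays. It was 10.88, 10.89, 10.69, 10.90 and 10.78 in 5XFAD, and in Trem2-/-5XFAD it ran from 9.48 through a median of 9.66 to 9.82. The 5XFAD arrays were all highest, the Trem2-/-5XFAD arrays lay wholly between them and WT, and WT and Trem2-/- overlapped. Ccl6 rose 3.06 times in 5XFAD over WT, a log2 difference of 1.61 ± 0.10 (limma, adjusted p = 5.1e-10). In Trem2-/-5XFAD it was 2.26 times lower than in 5XFAD (-1.18 ± 0.09, adjusted p = 3.3e-08).

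The rise of Ccl6 with the transgenes was smaller without Trem2, and this difference was itself past the threshold. Trem2-/-5XFAD exceeded Trem2-/- by 0.70 ± 0.10 (limma, adjusted p = 3.1e-04), where Ccl6 was the only called ligand and 2.18% of all genes were called, 1.63% higher and 0.558% lower. The interaction, which is the 5XFAD difference without Trem2 minus that with Trem2, was -0.92 ± 0.15 (adjusted p = 8.7e-04), where 2.60% of all genes were called, 1.02% positive and 1.58% negative. Ccl6 was also the only called ligand there. In Trem2-/-5XFAD it was called higher than in WT (0.44 ± 0.10, adjusted p = 0.0139), a call that ended under 5 of 16 alternatives. The 5XFAD difference, the difference between Trem2-/-5XFAD and 5XFAD and the interaction kept their call with each array left out in turn and without the 4 arrays with salivary transcripts.

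Ccl9, also a Ccr1 ligand, is the chromosomal neighbour of Ccl6 and moved the opposite way in 5XFAD. Its level was 9.16, 9.11, 8.82 and 8.90 in WT and 8.73, 8.81, 8.69 and 8.34 in Trem2-/-. In 5XFAD it was 8.01, 8.58, 8.51, 8.21 and 8.33, and in Trem2-/-5XFAD it ran from 8.29 through 8.57 to 8.71. WT was the highest group and overlapped with none of the others, which overlapped among themselves. Ccl9 fell 1.59 times in 5XFAD against WT (-0.67 ± 0.13, limma adjusted p = 0.00117). It was also called lower in Trem2-/-5XFAD against WT (-0.49 ± 0.13, adjusted p = 0.0279), and its difference of Trem2-/-5XFAD from 5XFAD was 0.18 ± 0.12 (adjusted p = 0.439; 95% interval -0.07 to 0.43). Without the 4 arrays with salivary transcripts the 5XFAD difference was -0.51 (adjusted p = 0.0554) and that of Trem2-/-5XFAD from WT was -0.35 (adjusted p = 0.198). The latter call also ended without WT 1, WT 2, Trem2-/-5XFAD 3 or Trem2-/-5XFAD 4, with differences of -0.44, -0.45, -0.45 and -0.45.

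The start regions of Ccl6 and Ccl9 are shown because these adjacent genes differed in the direction of their change. They come from RefSeq on the GRCm38.p6 build, from 250 bases before to 50 bases after the annotated start, at chr11:83593038-83593337 for Ccl6 and chr11:83578587-83578886 for Ccl9, both on the minus strand and written 5′ to 3′. Capitals mark a match on either strand to the AP-1 motif TGANTCA. The table of promoters held 5 of the 10 ligands.
Ccl6: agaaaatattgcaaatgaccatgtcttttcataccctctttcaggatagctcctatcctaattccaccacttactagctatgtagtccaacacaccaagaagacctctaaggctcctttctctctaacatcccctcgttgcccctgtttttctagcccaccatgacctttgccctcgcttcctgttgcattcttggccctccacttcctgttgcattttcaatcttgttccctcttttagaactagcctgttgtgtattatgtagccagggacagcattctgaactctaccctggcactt
Ccl9: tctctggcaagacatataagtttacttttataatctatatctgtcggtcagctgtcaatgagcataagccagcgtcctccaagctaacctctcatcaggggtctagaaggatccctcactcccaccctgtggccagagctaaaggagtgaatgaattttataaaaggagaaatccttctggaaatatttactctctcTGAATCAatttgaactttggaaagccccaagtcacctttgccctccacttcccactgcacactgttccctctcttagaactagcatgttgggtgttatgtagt
The Ccl9 window held 1 AP-1 match, 53 bases before the start, and the Ccl6 window held none. Of 32851 promoter windows in the table, 7.81% held the motif. TATAAA, the letters of a TATA box, was found at 3 places in Ccl9, 224, 94 and 92 bases before the start, and at 0 in Ccl6. The first 2 of these read TTTATA, a match on the other strand, and the last 2 overlap. On either strand, 13.6% of windows held it. The longest run of letters the windows shared was gccctccacttcc, of 13 bases, which starts 55 bases before the start of Ccl6 and 14 before that of Ccl9, and 6 of the 32851 windows held it. Ccl3, Ccl8 and Ccl12, the other ligands in the table, had no AP-1 match, and Ccl12 and Ccl8 each had 1 TATAAA, 31 and 32 bases before the start. A match of letters does not show binding, and its absence says nothing of the factor.

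The monocyte attractants Ccl2 and Ccl7 were both lower in 5XFAD. Ccl2, the main ligand of Ccr2, was 10.55, 10.52, 10.49 and 9.86 in WT and 10.41, 10.39, 10.41 and 10.18 in Trem2-/-. It was 9.20, 9.67, 9.42, 8.95 and 9.42 in 5XFAD, and 10.02, 9.82, 10.42, 9.98, 10.16 and 9.96 in Trem2-/-5XFAD. Each 5XFAD array lay below all arrays of the other groups, which overlapped with each other. Ccl2 fell by 1.02 ± 0.16, or 2.03 times, against WT (limma, adjusted p = 8.1e-05). It was 1.66 times higher in Trem2-/-5XFAD than in 5XFAD (0.73 ± 0.14, adjusted p = 0.00203), and its interaction was 0.73 ± 0.22 (adjusted p = 0.0810). The interaction passed the threshold without WT 4 (0.90, adjusted p = 0.0180) and without 5XFAD 2 (0.82, adjusted p = 0.0461).

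Ccl7, which attracts monocytes through several CC receptors, spread more among arrays of a group than Ccl2. It was 10.08, 10.22, 9.58 and 8.59 in WT and 10.64, 10.30, 10.05 and 9.20 in Trem2-/-. In 5XFAD it was 7.83, 8.40, 8.86, 8.48 and 8.61, and in Trem2-/-5XFAD it ran from 9.07 through 9.63 to 10.40. 5XFAD overlapped with WT through WT 4 alone and lay below all arrays of both groups without Trem2. Ccl7 was 2.27 times lower in 5XFAD than in WT (-1.18 ± 0.32, limma adjusted p = 0.0153) and 2.43 times higher in Trem2-/-5XFAD than in 5XFAD (1.28 ± 0.29, adjusted p = 0.00753). Without the 4 arrays with salivary transcripts these differences were -0.43 (adjusted p = 0.579) and 1.07 (adjusted p = 0.0563). The first also lost its call without WT 1 (-1.03, adjusted p = 0.0558) or WT 2 (-0.98, adjusted p = 0.0607).

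Ccl24, an eotaxin that attracts eosinophils, was 7.23, 6.36, 6.68 and 6.24 in WT and 7.40, 6.70, 7.26 and 5.94 in Trem2-/-. In 5XFAD it was 5.77, 6.32, 4.88, 5.34 and 5.72, and in Trem2-/-5XFAD it ran from 6.18 through 6.50 to 7.12. The 5XFAD arrays lay low, with 5XFAD 2 reaching into the other groups. Ccl24 was 2.03 times lower in 5XFAD than in WT (-1.02 ± 0.29, limma adjusted p = 0.0184) and 1.90 times higher in Trem2-/-5XFAD than in 5XFAD (0.93 ± 0.26, adjusted p = 0.0312). The first call ended without WT 1 (-0.82, adjusted p = 0.0762), without 5XFAD 3 (-0.84, adjusted p = 0.0548) and with Xist signal as a covariate (-0.71, adjusted p = 0.140). The second ended without 5XFAD 1, 3 or 4, or without Trem2-/-5XFAD 1, 3 or 6, where the difference lay between 0.75 and 0.97 and the adjusted p reached 0.101.

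Markers of border macrophages, the perivascular and meningeal macrophages of the brain, moved with Ccl2, Ccl7 and Ccl24. Of 13 such markers 0 rose and 5 fell in 5XFAD against WT (median -0.76), and 10 rose and 0 fell in Trem2-/-5XFAD against 5XFAD (median 0.91). Their mean log2 level ran from 5.79 to 6.68 in WT, 6.23 to 7.24 in Trem2-/-, 5.11 to 5.76 in 5XFAD and 6.10 to 6.69 in Trem2-/-5XFAD. The gap between WT and 5XFAD was widest among the 4 arrays with salivary transcripts. It was 6.29 and 6.68 in WT 1 and WT 2 against 5.25 and 5.11 in 5XFAD 1 and 5XFAD 2. WT 3 and WT 4, at 5.91 and 5.79, lay close to 5XFAD 3, 4 and 5, at 5.68, 5.61 and 5.76. Their summed intensity was 1383 to 2311 in WT, 1586 to 2958 in Trem2-/-, 688 to 1102 in 5XFAD and 1358 to 2308 in Trem2-/-5XFAD. The mannose receptor Mrc1 and the hyaluronan receptor Lyve1, which define these cells, were above the 40th percentile of all 19 arrays, and the haemoglobin scavenger receptor Cd163 in 17. Microglial markers went the same way. Of 12, 0 rose and 9 fell in 5XFAD against WT (median -0.47), and 6 rose and 0 fell in Trem2-/-5XFAD against 5XFAD (median 0.27). Their mean log2 level was 10.68 to 10.85 in 5XFAD, below every array of the other groups. The movement was therefore not particular to border macrophage markers. In bulk RNA, fewer cells of a type and less RNA per cell cannot be told apart.

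The mean of the border macrophage markers was also taken as a covariate, an alternative chosen after the data were seen. With it the differences of Ccl7 were -0.21 ± 0.26 (limma, adjusted p = 0.709) in 5XFAD and 0.12 ± 0.27 (adjusted p = 0.898) in Trem2-/-5XFAD against 5XFAD. Those of Ccl24 were -0.74 (adjusted p = 0.259) and 0.59 (adjusted p = 0.520). Those of Ccl2 were -0.81 ± 0.19 (adjusted p = 0.00976) and 0.47 ± 0.20 (adjusted p = 0.268), so that the first kept its call. Ccl5 lost its call in 5XFAD (1.03, adjusted p = 0.158), and Ccl6 kept both calls, at 1.65 and -1.22. The covariate differed between genotypes, so a fit with it cannot assign the ligands to a cell type. The part of border macrophages in these differences was not tested.

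**Figure D3:**
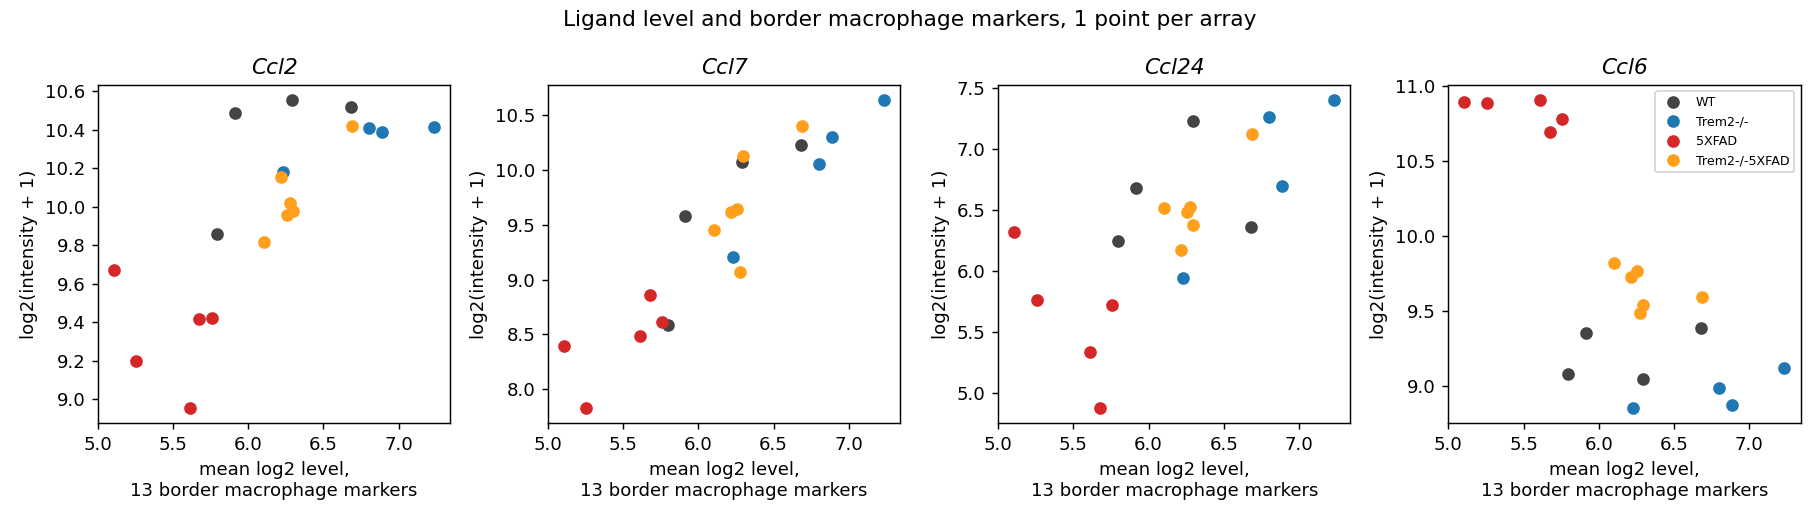
Level of Ccl2, Ccl7, Ccl24 and Ccl6, log2(intensity + 1), against the mean log2 level of 13 border macrophage markers, with 1 point per array coloured by genotype. The 5XFAD arrays have the lowest marker means (5.11 to 5.76) and lie low in Ccl2, Ccl7 and Ccl24 but high in Ccl6.

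Ccl8 and Ccl12, the other genes of the monocyte attractant cluster, were not called in any comparison. Ccl12 was high on all arrays, at the 98.4th percentile of the array or above. It was 10.74, 11.01, 11.04 and 11.06 in WT and between 10.86 and 11.01 in the 4 Trem2-/- arrays, and in 5XFAD it was 11.10, 11.04, 11.92, 10.95 and 11.11. In Trem2-/-5XFAD it ran from 11.08 through 11.16 to 11.69, above every WT and every Trem2-/- array. Its difference in 5XFAD against WT was 0.26 ± 0.16 (limma, adjusted p = 0.330; 95% interval -0.08 to 0.60).

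Ccl8 gave a weak signal, above the 40th percentile in 16 of 19 arrays. It was 4.75, 5.62, 4.76 and 3.90 in WT, 5.91, 6.81, 6.94 and 5.01 in Trem2-/- and 3.91, 4.67, 5.38, 3.82 and 5.36 in 5XFAD. In Trem2-/-5XFAD it ran from 5.03 through 5.32 to 6.98. Both groups without Trem2 reached higher than both groups with it, and all groups overlapped. The difference of Trem2-/- from WT was 1.41 ± 0.47 (limma, adjusted p = 0.209; 95% interval 0.43 to 2.39), and that of Trem2-/-5XFAD from 5XFAD was 0.94 ± 0.40 (adjusted p = 0.186; 0.10 to 1.78).

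Ccl3 and Ccl4, also known as macrophage inflammatory proteins, lay near the top of every array. Ccl3 stood at or above the 99.89th percentile of all 19 arrays, and its level varied over only 0.41 between the lowest, 12.62, and the highest, 13.03. The highest signal on an array was 13.24 to 13.56, and whether the Ccl3 probe set was near saturation was not tested. Its difference in 5XFAD against WT was 0.11 ± 0.09 (limma, adjusted p = 0.447; 95% interval -0.07 to 0.29) and in Trem2-/-5XFAD against 5XFAD 0.03 ± 0.08 (adjusted p = 0.893; -0.13 to 0.19).

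Ccl4 was 12.58, 12.53, 11.90 and 11.78 in WT, 11.95, 12.29, 12.15 and 12.30 in Trem2-/- and 12.64, 12.71, 12.57, 12.51 and 12.57 in 5XFAD. In Trem2-/-5XFAD it ran from 12.39 through 12.56 to 12.71. The WT arrays split. WT 1 and WT 2, which were high in Klk1b22, lay within the range of 5XFAD. WT 3 and WT 4 lay below all transgenic arrays. Over all arrays the 5XFAD difference was 0.40 ± 0.14 (limma, adjusted p = 0.0615). Without the 4 arrays with salivary transcripts Ccl4 was called higher in 5XFAD (0.71 ± 0.14, adjusted p = 0.00206), as it was without WT 1 alone (0.53, adjusted p = 0.0130) or WT 2 alone (0.51, adjusted p = 0.0202). Its difference between Trem2-/-5XFAD and 5XFAD was -0.03 ± 0.13 (adjusted p = 0.917; 95% interval -0.30 to 0.23).

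Ccl5, known as RANTES and shared by macrophages with T and NK cells, was 8.56, 6.81, 8.11 and 6.53 in WT and 7.68, 8.15, 8.16 and 7.32 in Trem2-/-. It was 8.54, 9.25, 8.02, 8.49 and 8.62 in 5XFAD, and in Trem2-/-5XFAD it ran from 8.32 through 8.54 to 8.93. The WT arrays spread widely and overlapped with 5XFAD, while every Trem2-/-5XFAD array lay above every Trem2-/- array. Ccl5 was 2.12 times higher in 5XFAD than in WT (1.08 ± 0.32, limma adjusted p = 0.0258), and its difference between Trem2-/-5XFAD and 5XFAD was 0.01 ± 0.29 (adjusted p = 0.993), with a 95% interval from -0.60 to 0.62. The call in 5XFAD ended without WT 2 (0.85, adjusted p = 0.0990), WT 4 (0.76, adjusted p = 0.116) or 5XFAD 2 (0.92, adjusted p = 0.0710) and without the 4 arrays with salivary transcripts (1.06, adjusted p = 0.0637). It also ended in a fit of the 2 groups alone (1.08, adjusted p = 0.103) and with the array of conflicting labels put in WT (0.86, adjusted p = 0.0801).

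Of the T and NK cell markers, which could share Ccl5, 8 of the 13 with a probe set were above the 40th percentile in no array. Cd3d, Cd3g, Nkg7 and Gzma were among them. Cd3e and Prf1 were above it in all 19 arrays, Klrd1 in 16, Cd8a in 15 and Cd8b1 in 1. The mean log2 level of the 13 was 3.49 to 3.62 in 5XFAD, below the 3.66 to 3.75 of WT. This mean includes Klrd1, which averaged 4.09 in 5XFAD and 5.51 in WT. Of the 4 tested, only the NK receptor subunit Klrd1 was called, lower in 5XFAD by 1.42 ± 0.43 (limma, adjusted p = 0.0267) and higher in Trem2-/-5XFAD than in 5XFAD by 1.59 ± 0.39 (adjusted p = 0.0120). Of the 9 monocyte markers with a probe set 4 were tested, and 1, the annexin Anxa2, was called in both main comparisons, higher in 5XFAD by 2.77 and then lower in Trem2-/-5XFAD by a log2 difference of -1.05. The monocyte receptor Ccr2 was above the 40th percentile in 3 of 19 arrays. Of 7 neutrophil markers tested 0 were called in either comparison. Of 7 astrocyte markers tested 2 rose and 1 fell in 5XFAD against WT, led by the filament protein Gfap at 2.16, and 0 rose and 3 fell in Trem2-/-5XFAD against 5XFAD. Of 4 vascular markers 1 rose and 1 fell in each comparison, of 3 neuronal markers 0 were called, and of 7 oligodendrocyte markers only Mbp rose, in 5XFAD. With the mean of astrocyte, vascular, neuronal and oligodendrocyte markers as a covariate, the call of Ccl7 ended in 5XFAD (-0.81, limma adjusted p = 0.291) and in Trem2-/-5XFAD against 5XFAD (0.94, adjusted p = 0.241). So did that of Ccl5 in 5XFAD (1.05, adjusted p = 0.172) and that of Ccl24 in Trem2-/-5XFAD against 5XFAD (1.21, adjusted p = 0.0689), which also ended with neutrophil markers as a covariate (0.87, adjusted p = 0.0962). With the brain cell covariate the Ccl24 difference was larger than without it (0.93 ± 0.26), but its standard error was 0.35.

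On chromosome 11 the ligand genes lie in 2 groups with 25 other protein-coding genes between them, in the GRCm38.p6 gene order. The first runs Ccl2, Ccl7, Ccl11, Ccl12, Ccl8 and Ccl1 and the second Ccl5, Ccl9, Ccl6, Ccl3 and Ccl4. Ccl24 is on chromosome 5. In the first group the called genes, Ccl2 and Ccl7, are adjacent and both were lower in 5XFAD, while Ccl11 (-0.21 ± 0.13) and Ccl1 (0.07 ± 0.13) were not called. In the second group Ccl5 and Ccl6 were higher and Ccl9, which lies between them, was lower. Neighbours in the second group therefore differed in direction.

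**Figure D4:**
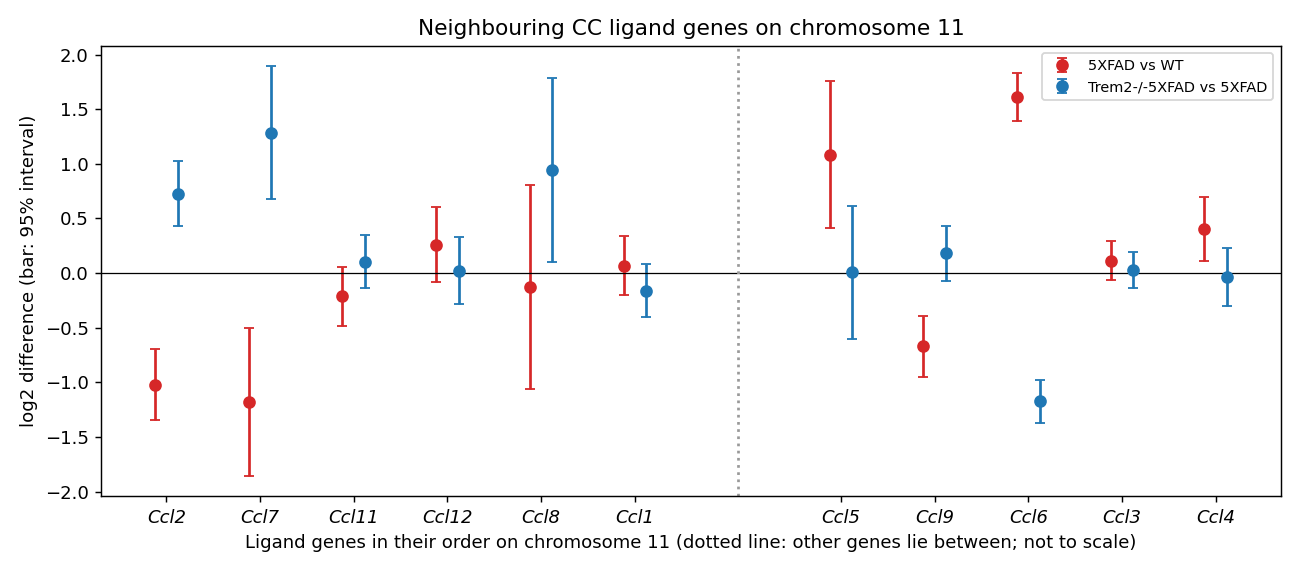
Log2 difference with its 95% interval for 11 CC ligand genes in their order on chromosome 11 (distances not to scale), for 5XFAD against WT and Trem2-/-5XFAD against 5XFAD. Ccl9 (-0.67) and Ccl6 (1.61), side by side, have opposite signs in 5XFAD against WT.

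In the absence of the transgenes, loss of Trem2 left 0 of the 10 ligands called by limma, where 0.613% of all genes were called. Ccl8 as above, Ccl9 (-0.35 ± 0.14, adjusted p = 0.300) and Ccl6 (-0.26 ± 0.11, adjusted p = 0.334) had an unadjusted limma p below 0.05. The share of all genes below that unadjusted threshold was not counted, so nothing is read from their number. The arrays of Ccl9 did not overlap between the groups, where this was so for 5.79% of all genes. In Trem2-/-5XFAD against Trem2-/-, the arrays of 4 ligands, Ccl4, Ccl5, Ccl6 and Ccl12, did not overlap and lay wholly higher. This compares with 6.01% of all genes that did not overlap, higher and lower counted together. Of these only Ccl6 was called, and Ccl4 (0.39 ± 0.14, limma adjusted p = 0.157) and Ccl5 (0.76 ± 0.31, adjusted p = 0.249) were not. Ccl4 passed without the 4 arrays with salivary transcripts (0.39, adjusted p = 0.0323).

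In Trem2-/-5XFAD against WT 3 of 10 were called, where 5.22% of all genes were, 3.21% higher and 2.01% lower, namely Ccl6 and Ccl9 as above and Ccl5, higher by 1.09 ± 0.31 (limma, adjusted p = 0.0450). The call of Ccl5 lay close to the threshold and ended in 12 of 19 fits that each left out 1 array. These were the fits without WT 2 (0.86), WT 4 (0.77), Trem2-/- 1, 5XFAD 1, 5XFAD 4 or 5XFAD 5 and those without any 1 of the 6 Trem2-/-5XFAD arrays (1.02 to 1.14). It also ended with neutrophil markers as a covariate (1.19, adjusted p = 0.104), and 2 of 7 neutrophil markers were called higher in this comparison. That of Ccl6 ended without the 4 arrays with salivary transcripts (0.44, adjusted p = 0.0548), with Xist signal (0.43, adjusted p = 0.0946) or neutrophil markers (0.43, adjusted p = 0.0671) as a covariate and in a fit of these groups alone (0.44, adjusted p = 0.0514). That of Ccl9 ended with Xist signal as a covariate (-0.53, adjusted p = 0.109). The arrays of Ccl6, Ccl9 and Ccl12 did not overlap between the groups, where this held for 6.58% of all genes. This comparison shares the WT arrays with that of 5XFAD against WT.

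Few receptors for these ligands were measured in the same cells. Of 14 CC receptor genes with a probe set, 5 were above the 40th percentile in no array, Ccr3 and Ccr8 among them, 8 were tested and 1 was called. This was Ccrl2, an atypical receptor that binds chemerin and does not signal like other CC receptors. It averaged 10.43 in WT, 10.23 in Trem2-/-, 10.86 in 5XFAD and 10.40 in Trem2-/-5XFAD. It was higher in 5XFAD than in WT by 0.42 ± 0.10 (limma, adjusted p = 0.00419) and lower in Trem2-/-5XFAD than in 5XFAD by a log2 difference of -0.46 ± 0.09 (adjusted p = 0.00187). Ccr1, the receptor of Ccl6 and Ccl9, was above the percentile in 10 of 19 arrays, with means between 3.75 in 5XFAD and 5.07 in Trem2-/-. Of 9 other CC ligands with a probe set 5 were tested and 0 were called in either main comparison.

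NF-kappaB factors, which switch on most CC chemokines in macrophages, were examined as a list. Whether they drive these ligands here was not tested. Of the 14 genes on the list 12 had a probe set that named them alone. Of 12 NF-kappaB factors and feedback genes tested, 3 rose and 0 fell in 5XFAD against WT, with a list median of 0.23, and 0 were called in Trem2-/-5XFAD against 5XFAD. Those that rose were the subunits Relb (0.77 ± 0.18, limma adjusted p = 0.00488) and Rel (0.42 ± 0.11, adjusted p = 0.00820) and the co-regulator Nfkbiz (0.33 ± 0.09, adjusted p = 0.0172).

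Immediate early genes, which include the AP-1 subunits and respond to handling as well as to stimuli, went lower in 5XFAD. Of 21, 1 rose and 10 fell against WT (median -0.29), and 3 rose and 1 fell in Trem2-/-5XFAD against 5XFAD (median 0.16). Fos fell by 0.90 ± 0.15 (limma, adjusted p = 2.8e-04), Klf2, a factor that restrains inflammatory genes, by 1.01 ± 0.12 (adjusted p = 2.7e-06) and Jun by 0.43 ± 0.08 (adjusted p = 9.3e-04), while Egr2 rose by 0.67 ± 0.15 (adjusted p = 0.00406). The mean log2 level of the list was 10.37 to 10.64 in WT, 10.49 to 10.61 in Trem2-/-, 10.07 to 10.32 in 5XFAD and 10.24 to 10.46 in Trem2-/-5XFAD. With this mean as a covariate, also chosen after the data were seen, Ccl2 remained called in 5XFAD (-0.80, limma adjusted p = 0.0375) and Ccl7 (-0.43, adjusted p = 0.678), Ccl24 (-0.74, adjusted p = 0.383), Ccl9 (-0.58, adjusted p = 0.0943) and Ccl5 (1.45, adjusted p = 0.0787) did not. In Trem2-/-5XFAD against 5XFAD, Ccl2 (0.59, adjusted p = 0.0665), Ccl7 (0.81, adjusted p = 0.218) and Ccl24 (0.75, adjusted p = 0.256) lost their calls with it. Ccl6 kept both of its calls, at 1.64 and -1.20, and Ccl4 was newly called higher in 5XFAD (0.72, adjusted p = 0.0271). This mean did not overlap between WT and 5XFAD, and standard errors grew with it, for Ccl7 in 5XFAD from 0.32 to 0.44. A call can thus be lost through a larger error as well as a smaller difference. The part of these genes in the ligand differences was not tested.

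For each ligand the 3 most similar genes were found among all tested genes, as those with the smallest root-mean-square difference of log2 levels, each centred on its own mean, over the 19 arrays. For Ccl7, whose SD over the arrays was 0.80, they were the platelet factor chemokine Pf4 at 0.24, the lectin Clec10a at 0.36 and the mannose receptor Mrc1 at 0.37, all on the border macrophage list. For Ccl2, with an SD of 0.48, they were Pdlim4 at 0.19, the adhesion receptor Adgrg1 at 0.20 and the transcription factor Maf at 0.21. Maf is on the border macrophage list, and Adgrg1, known also as Gpr56, is a gene of resident microglia. For Ccl6, with an SD of 0.74, they were Pianp at 0.22, the cytokine Mif at 0.23 and the hypoxia factor Hif1a at 0.23.

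The nearest genes of the other ligands were less close in proportion to how much the ligand varied. For Ccl24 (SD 0.66) they were Cryba4, the inhibitory receptor Pirb and Fcrl1, at 0.32 to 0.37. For Ccl9 (SD 0.30) they were the nucleoside transporter Slc29a1, Gm4841 and the TNF receptor Tnfrsf1b, at 0.17 to 0.19. For Ccl8 (SD 0.93) they were the clock repressor Nr1d1, the lectin Clec4n and the haem oxygenase Hmox1, at 0.52 to 0.61. For Ccl5 (SD 0.69) they were Nrbf2, the proton pump subunit Atp6v1a and Cdc42ep2, at 0.44 to 0.46. Ccl4 (SD 0.28) was nearest to Cenpa, Noct and Nab2, at 0.15 to 0.16, and Ccl12 (SD 0.27) to Vmp1, Csf2rb2 and Psmc5, at 0.17 each. Ccl3, which hardly varied (SD 0.10), was nearest to Eef1a1, Safb2 and Rpl10 at 0.09, a distance close to its own SD.

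**Figure D5:**
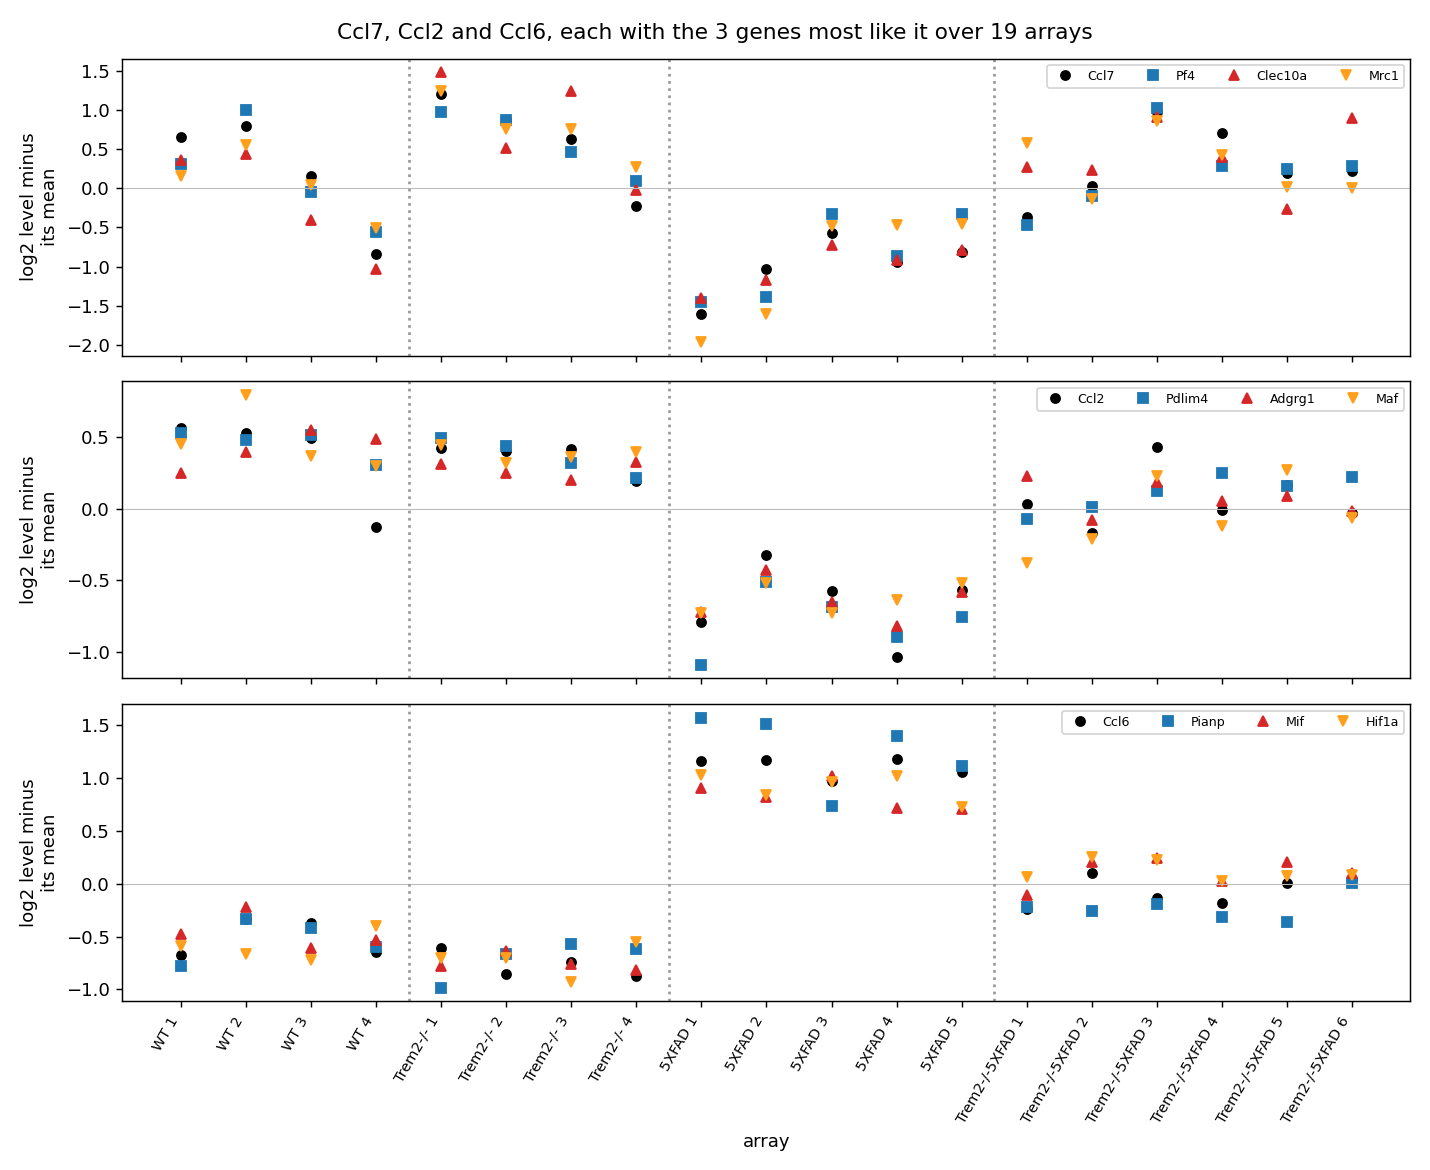
Log2 level minus its mean over the 19 assigned arrays for Ccl7, Ccl2 and Ccl6 (black circles) and the 3 genes most like each, with arrays ordered by genotype and dotted lines between groups. Ccl7 and Pf4 differ by 0.24 on average (root mean square), and Ccl6 and its 3 genes lie highest in 5XFAD.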

How the data were processed

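The authors deposited a table of linear intensity values for 24679 probe sets on 20 one-colour arrays. For this table, no normalization, summary method or software is named by the labels (not given in the sources used here). Array medians lay between 25.7 and 28.6 and correlations of log2 values between arrays between 0.967 and 0.992, so the arrays were on a common scale. Precision is limited by the number of arrays.

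Values were taken as log2(intensity + 1). A probe set named a gene where the platform annotation gave 1 symbol (21354 probe sets), and the one with the highest mean stood for a gene. A gene entered the test if it passed the 40th percentile in 4 or more arrays. The fit used limma 3.58.1 (R 4.3.3), with a coefficient for each genotype over 19 arrays together (residual degrees of freedom 15), and was checked on simulated data. One array has a WT title but a Trem2-/- genotype and entered no group. Named genes were the 10 ligands, Trem2, called members of each list and the 3 genes most like each ligand. Ccl11 and Ccl1 were added as neighbours, and Ccr1, Ccr3, Ccr8, Cd163, Lyve1 and markers below the percentile as members of their lists. The ligands and lists were chosen with earlier results of these data known. Replicate numbers were not taken as pairs.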

Additional observations from a re-analysis of the deposited data

Results flagged for a closer look

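The change of Ccl6 with the 5XFAD transgenes differed between mice with and without Trem2, by a log2 interaction of -0.92 ± 0.15 (limma, adjusted p = 8.7e-04).

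Single arrays stood apart from their group in 8 of 40 combinations of ligand and group by Dixon's criterion, which flags about 1 in 20 groups by chance. Ccl2 was low in WT 4 (9.86, next 10.49) and in Trem2-/- 4 (10.18, next 10.39), the arrays with the lowest border macrophage mean of their groups (5.79 and 6.23). Ccl12 was high in 5XFAD 3 (11.92, next 11.11) and in Trem2-/-5XFAD 1 (11.69, next 11.28), and low in WT 1 (10.74, next 11.01). The neutrophil marker mean was 4.81 in 5XFAD 3 and 6.07 in Trem2-/-5XFAD 1, the highest of their groups. The monocyte marker means of these arrays, 4.72 and 4.94, were also the highest of their groups. Trem2-/- 1 had the highest neutrophil mean of its group (5.86) and the lowest Ccl12 (10.86). Trem2-/-5XFAD 6 had the next highest neutrophil mean of its group (5.24) and the lowest Ccl12 (11.08). Ccl8 was high in Trem2-/-5XFAD 1 (6.98, next 5.63). Ccl24 was high in Trem2-/-5XFAD 3 (7.12, next 6.52), the array of that group with the highest border macrophage mean (6.69). Ccl3 was high in Trem2-/-5XFAD 4 (13.03, next 12.90). The part of these markers in the single values was not tested.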

How the results depend on the processing

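Over 16 alternatives and 19 fits that each left out 1 array, Ccl6 kept its call in 5XFAD against WT (1.52 to 1.67), in Trem2-/-5XFAD against 5XFAD (-1.22 to -1.08), in Trem2-/-5XFAD against Trem2-/- (0.64 to 0.79) and in the interaction (-0.97 to -0.82), and Ccl2 kept its call in 5XFAD against WT (-1.19 to -0.80). The alternative with the next highest probe set of each gene could not move a ligand difference, as each ligand had 1 probe set. Leaving out an array outside a comparison could not move its difference either, only its error. The 6 ligands called in 5XFAD against WT became 3 (Ccl2, Ccl6 and Ccl9) with border macrophage markers as a covariate. With immediate early genes as a covariate 3 were called, Ccl2, Ccl6 and the newly called Ccl4. With 1 array left out there were 5 to 6. All counts here are net of calls gained and lost. Without WT 1 the calls of Ccl7 and Ccl24 ended, without WT 2 those of Ccl5 and Ccl7, and Ccl4 was added in both. Without WT 1, WT 2, 5XFAD 1 and 5XFAD 2 those of Ccl5, Ccl7 and Ccl9 ended and Ccl4 was added. The 4 called in Trem2-/-5XFAD against 5XFAD became 2 with markers of other brain cells, 1 with border macrophage markers and 1 with immediate early genes as a covariate, and 3 to 4 with 1 array left out. The 0 called in Trem2-/- against WT stayed 0 throughout. The 1 called in Trem2-/-5XFAD against Trem2-/- became 2 with only the groups of the comparison and 2 without WT 1, WT 2, 5XFAD 1 and 5XFAD 2. The 3 called in Trem2-/-5XFAD against WT became 1 with only the groups of the comparison, 1 with Xist signal, 1 with neutrophil markers and 1 with the replicate block, and 1 to 3 with 1 array left out, with 1 without WT 2, Trem2-/-5XFAD 3 or Trem2-/-5XFAD 4. The 1 called in the interaction became 2 after a second quantile normalization, 2 with the conflicting array in Trem2-/- (Ccl2 added; that array has Trem2 at 11.08, against 6.84 to 7.02 in the others of that group), and 1 to 2 with 1 array left out (2 without WT 4 or 5XFAD 2). The cause of these changes was not tested.

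Signs that turned concerned differences not called in either setting. In 5XFAD against WT, Ccl8 was 0.53 without the 4 arrays with salivary transcripts, 0.69 with border macrophage markers, 0.26 with immediate early genes and -0.41 to 0.16 with 1 array left out, and Ccl12 was -0.038 with immediate early genes. In Trem2-/-5XFAD against 5XFAD, centring on the array median gave Ccl3 -0.014, Ccl5 -0.034 and Ccl12 -0.019, and a second quantile normalization gave Ccl4 0.042. Markers of other brain cells as a covariate gave Ccl4 0.090 and Ccl12 -0.11, and neutrophil markers Ccl4 0.034 and Ccl12 -0.11. Without the 4 salivary arrays Ccl4 was 0.018 and Ccl12 -0.081, and without Trem2-/- 1 and Trem2-/-5XFAD 1, added after the data were seen, 0.000405 and -0.068. Border macrophage markers gave Ccl8 -0.040 and Ccl12 -0.00224, and immediate early genes Ccl3 -0.043 and Ccl5 -0.22. With 1 array left out Ccl4 ran from -0.063 to 0.000405, Ccl5 from -0.13 to 0.17 and Ccl12 from -0.068 to 0.20.

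Deviations of same-numbered arrays of different genotypes correlated at -0.10 to 0.17 over 25 pairs. In the 4 pairs of WT and 5XFAD they correlated at 0.095 to 0.17. Not every pair passed 0.1, so the numbers were not taken as pairs. Whatever their number, WT and 5XFAD arrays fell into sets. WT 1 and WT 2 correlated with 5XFAD 1 and 5XFAD 2 at 0.10 to 0.16. WT 3 and WT 4 correlated with 5XFAD 3, 5XFAD 4 and 5XFAD 5 at 0.075 to 0.17. Pairs of WT and 5XFAD arrays across these sets lay at -0.17 to 0.004. The main fit had no term for this split, and its cause was not tested. With the replicate number as a block the ligands called were 5 in 5XFAD against WT, where Ccl5 lost its call (1.04, adjusted p = 0.0693), and 4 in Trem2-/-5XFAD against 5XFAD. In Trem2-/-5XFAD against WT the block ended the calls of Ccl5 (1.06, adjusted p = 0.125) and Ccl6 (0.41, adjusted p = 0.0671). Over all genes tested, the alternatives called 907 to 2043 genes in 5XFAD against WT (1909 as reported), 344 to 1074 in Trem2-/-5XFAD against 5XFAD (977), 11 to 272 in Trem2-/- against WT (78), 71 to 430 in Trem2-/-5XFAD against Trem2-/- (278), 251 to 771 in Trem2-/-5XFAD against WT (664) and 208 to 383 in the interaction (331).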

Other observations

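The array whose title says WT and whose genotype says Trem2-/- had a log2 level of Trem2 of 11.08, against 6.84 to 7.02 in the Trem2-/- arrays and 11.14 to 11.39 in WT. Its ligand levels were 10.09 for Ccl2, 10.14 for Ccl7, 4.37 for Ccl8, 11.10 for Ccl12, 7.41 for Ccl24, 12.70 for Ccl3, 12.20 for Ccl4, 8.60 for Ccl5, 9.02 for Ccl6 and 8.96 for Ccl9. Its border macrophage markers averaged 7.04.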
